A study of Mus musculus with 12 samples.

Results

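The 9 genes described here are the hedgehog ligands Dhh, Ihh and Shh, the receptor gene Ptch1, the transducer Smo, the transcription factor genes Gli1, Gli2 and Gli3, and the antagonist Hhip, measured by array in mouse gonads with and without Foxl2, a forkhead transcription factor of granulosa cells. They were chosen by their annotated symbols, and all 9 were found among the 19938 genes of the adult table and the 18194 genes of the table for postnatal day 3 (P3). At 8 weeks of age, 8 arrays each measured the organ of 1 animal. These were 3 Foxl2 mutant ovaries, which the labels give as Foxl2 flox/flox x CreEBD, 3 wild-type testes and 2 wild-type ovaries. The P3 set held 2 arrays of Foxl2 KO ovaries and 2 of wild-type ovaries, each a pool of more than 10 females. Adult animals were perfused with PBS and P3 animals were not, and testis RNA came from part of the organ. The labels name neither the promoter that drives the Cre transgene nor the time at which the floxed gene was deleted, and they name no agent given to any group.

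Hedgehog ligands are secreted proteins that bind Ptch1 on neighbouring cells. Unbound Ptch1 holds back the membrane protein Smo, and ligand binding frees Smo to act on the Gli proteins in the primary cilium. Gli1 activates transcription and is itself a target, Gli2 is mainly an activator, and Gli3 often acts as a repressor. Ptch1 and Hhip are targets as well, so transcripts of Ptch1, Gli1 and Hhip are widely read as the response of a tissue. In the mouse ovary Ihh and Dhh come from granulosa cells and act on the theca and stroma around the follicle, whereas in the testis Dhh comes from Sertoli cells and acts on Leydig and peritubular cells.

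The promoter table from RefSeq (mouse build GRCm38.p6) held 7 of the 9 genes, and Shh and Gli1 were not among them. Each entry runs from 250 bases before to 50 bases after the annotated start. The sequences of Dhh, Ihh and Ptch1 are shown as those of the ligands that changed in adult mutant ovary, Dhh higher and Ihh lower, and of the receptor they bind. The fourth gene that changed there, Hhip, has its promoter described with the others. The Dhh window is chr15:98898491-98898790, that of Ihh is chr1:74951623-74951922 and that of Ptch1 is chr13:63565686-63565985, all on the minus strand and written 5′ to 3′. Capitals mark the GC box letters GGGCGG on either strand and, in Ihh alone, the SOX motif letters ACAAT.
Dhh: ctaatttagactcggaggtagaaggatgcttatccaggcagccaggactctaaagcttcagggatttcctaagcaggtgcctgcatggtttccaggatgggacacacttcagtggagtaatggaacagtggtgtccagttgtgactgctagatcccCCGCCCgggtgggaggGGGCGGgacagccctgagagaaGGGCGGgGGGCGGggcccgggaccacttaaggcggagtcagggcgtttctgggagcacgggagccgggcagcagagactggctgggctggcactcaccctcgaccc
Ihh: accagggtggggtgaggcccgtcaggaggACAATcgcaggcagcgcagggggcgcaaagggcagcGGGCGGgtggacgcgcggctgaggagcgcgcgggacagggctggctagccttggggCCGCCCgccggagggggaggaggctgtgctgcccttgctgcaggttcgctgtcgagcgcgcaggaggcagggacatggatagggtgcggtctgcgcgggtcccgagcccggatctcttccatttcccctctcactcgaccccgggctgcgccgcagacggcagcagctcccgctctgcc
Ptch1: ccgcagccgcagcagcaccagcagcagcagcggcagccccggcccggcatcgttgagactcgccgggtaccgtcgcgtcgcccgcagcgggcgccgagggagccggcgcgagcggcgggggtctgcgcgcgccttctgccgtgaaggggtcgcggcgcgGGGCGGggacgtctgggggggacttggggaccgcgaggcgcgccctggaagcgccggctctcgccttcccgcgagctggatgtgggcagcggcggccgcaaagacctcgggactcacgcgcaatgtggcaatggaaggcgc
The Dhh window held 4 GC boxes, that of Ihh 2 and that of Ptch1 1. Of the 7 promoters, 6 held a GC box (all but Smo), as did 35.7% of 32851 mouse promoters of the same length. ACAAT stood in 1 of the 7, Ihh, and in 31.0% of all promoters. The GLI motif GACCACCCA was found in 0 of the 7 and in 0.253% of all promoters, and the forkhead motif TGTTTAC in 0 of the 7 and in 3.65%. Both strands were searched, and no marked motif overlapped another. GC content was 61.7% in the Dhh window, 72.7% in that of Ihh and 76.3% in that of Ptch1, against a median of 52.7% over all promoters. A match is only a match of letters, and a missing match says nothing about the factor.

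Levels of adult arrays are RMA values on a log2 scale, and P3 levels are MAS5 signals on a linear scale. Differences are log2 differences with the standard error (SE) of the limma fit, and a gene passed where its p, adjusted by Benjamini and Hochberg's method for every gene of the table, was under 0.05. At P3 they are on the log2(signal + 16) scale, which understates changes of dim genes. Array levels compare samples for one gene and do not rank one gene against another. Foxl2 itself had RMA levels of 5.81, 6.04 and 5.73 in adult mutant ovaries and 5.22, 5.38 and 5.31 in testes, against 8.75 and 8.81 in wild-type ovaries. The mutant ovaries were 7.59-fold lower than wild-type ovaries (limma adjusted p = 5.08e-07). Its P3 signals were 186 and 154 in KO ovaries, against 814 and 830 in wild-type ovaries (-2.18 ± 0.21, limma adjusted p = 0.0238), and this call was lost in 6 of 12 alternatives. The files do not say whether these probes lie in the deleted sequence. Sertoli markers such as Sox9 rose in mutant ovary in 6 of 6 cases, against 9.55% of all genes. The mean RMA level of the list was 8.81 to 9.05 in mutant ovaries, 6.82 to 6.88 in testes and 5.57 to 5.66 in wild-type ovaries. Granulosa markers, Foxl2 itself among them, fell in 6 of 6 cases, against 6.66% of all genes. Their mean level was 6.27 to 6.40 in mutant ovaries, 4.73 to 4.88 in testes and 9.23 to 9.89 in wild-type ovaries. The wild-type ovaries differed from each other in oocyte markers, whose mean level was 8.11 in wild-type ovary 1 and 6.03 in wild-type ovary 2.

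In adult mutant ovary Dhh rose 2.92-fold and Ihh fell 3.36-fold relative to wild-type ovary. Ptch1 rose 1.64-fold, Hhip fell by 1.54 on the log2 scale to levels under the median gene of the array, and Shh, Smo, Gli1, Gli2 and Gli3 did not pass the test. So 4 of the 9 genes passed (44.4%), against 16.2% of all 19938 genes. Of the 4, 2 were higher (background 9.55%) and 2 were lower (background 6.66%). The mutant and wild-type ovaries did not overlap for 6 of the 9 genes (Dhh, Ihh, Ptch1, Smo, Gli2 and Hhip), against 39.9% of all genes. The median difference of the 9 genes was -0.28, beside -0.025 over all genes. In whole organs, fewer cells of a type and less RNA per cell cannot be told apart.

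**Figure D1:**
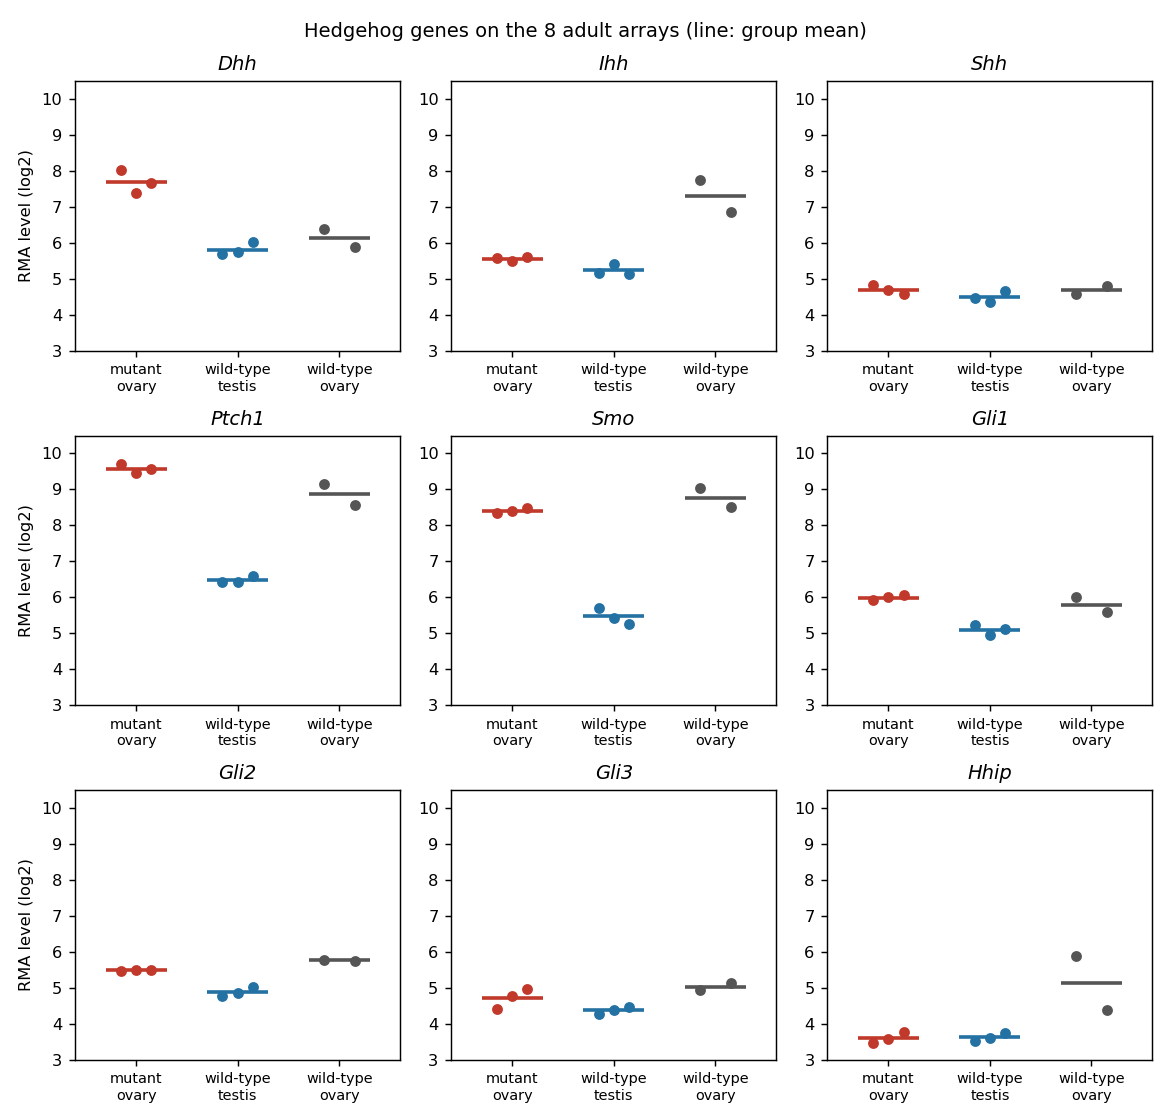
RMA levels (log2, vertical axis) of the 9 hedgehog genes on the 8 adult arrays, with 1 point per array and a line at each group mean; groups run from mutant ovary over wild-type testis to wild-type ovary. Dhh is highest in the 3 mutant ovaries (7.38 to 8.01), Ihh is highest in the 2 wild-type ovaries (6.86 and 7.76), and Ptch1 and Smo are lowest in the 3 testes.

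Dhh, the ligand of Sertoli and granulosa cells, had RMA levels of 8.01, 7.38 and 7.66 in mutant ovaries and 5.68, 5.73 and 6.03 in testes, against 6.38 and 5.89 in wild-type ovaries. Every mutant ovary was above every other array, whereas testes and wild-type ovaries overlapped. Mutant exceeded wild-type ovary by 1.55 ± 0.21 (95% interval 1.08 to 2.02, limma adjusted p = 0.000686), and it lay between 1.30 and 1.80 under all 15 alternatives, each of which kept the call. Mutant ovaries exceeded testes by 1.87 ± 0.19 (limma adjusted p = 7.04e-06). The Sertoli marker list, whose levels are given above, also rose in mutant against wild-type ovary. In testis 5 of 6 of its genes were above wild-type ovary, against 24.4% of all genes, whereas Dhh was not. The part of the list in the Dhh result was not tested.

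Ihh, the main hedgehog ligand of granulosa cells of growing follicles, ran the other way. Its RMA levels were 5.57, 5.50 and 5.61 in mutant ovaries and 5.17, 5.41 and 5.13 in testes, against 7.76 and 6.86 in wild-type ovaries. The 3 mutant ovaries lay close together and below both wild-type ovaries, just above the testes. On 4 of the 8 adult arrays, the testes and mutant ovary 2, Ihh was below the median gene. Mutant minus wild-type ovary gave -1.75 ± 0.23 (95% interval -2.25 to -1.24, limma adjusted p = 0.000479). It depended in size on the wild-type ovary kept, being -1.30 without wild-type ovary 1 but -2.20 without wild-type ovary 2, and passed in both. Mutant ovary against testis gave 0.32 ± 0.20 (95% interval -0.13 to 0.77, limma adjusted p = 0.199), although no mutant ovary overlapped a testis and the call was made without either wild-type ovary (limma adjusted p = 0.0365 without the first and 0.0356 without the second). Granulosa markers fell in the same arrays, and their part in the Ihh result was not tested.

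Shh, a ligand of many embryonic signalling centres, was below the median gene of its array on all 8 adult arrays. Its RMA levels were 4.84, 4.68 and 4.59 in mutant ovaries and 4.47, 4.34 and 4.66 in testes, against 4.57 and 4.80 in wild-type ovaries. All 3 groups overlapped. The difference between mutant and wild-type ovary was 0.019 ± 0.15 (95% interval -0.31 to 0.35, limma adjusted p = 0.955), with a sign that turned under median centring (-0.00419).

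The opposite changes of Dhh and Ihh can be read within each array as the log2 level of Dhh minus that of Ihh. This value was 2.44, 1.88 and 2.05 in mutant ovaries and 0.51, 0.32 and 0.89 in testes, against -1.38 and -0.97 in wild-type ovaries. The 3 groups did not overlap, and the mutant ovaries lay farther from wild-type ovaries than the testes did. The mean changed by 3.30 between mutant and wild-type ovary (exact two-sided permutation p = 0.2) and by 1.55 between mutant ovary and testis (exact two-sided permutation p = 0.1). Between testis and wild-type ovary it changed by 1.75 (exact two-sided permutation p = 0.2). Each of these p-values is the smallest the design allows, and none could have reached 0.05. Probe sets differ in response, so only changes of this value between groups can be read, not its sign.

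**Figure D2:**
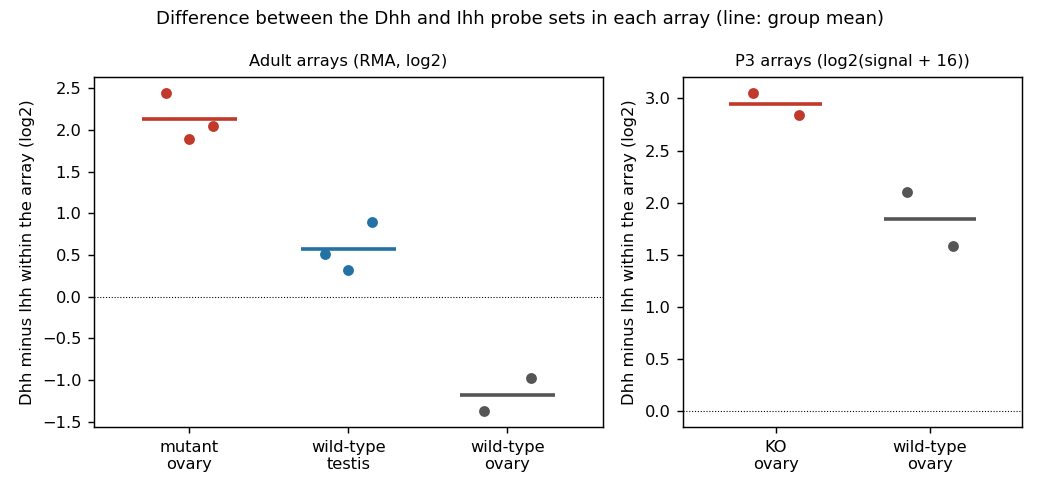
Dhh minus Ihh within each array (log2, vertical axis), adult arrays on the left and P3 arrays on the right, with 1 point per array and a line at each group mean. Adult mutant ovaries lie at 1.88 to 2.44 and wild-type ovaries at -1.38 and -0.97; at P3, KO ovaries lie at 2.84 and 3.05 and wild-type ovaries at 1.59 and 2.10.

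Ptch1, the receptor and a target of the pathway, had RMA levels of 9.71, 9.45 and 9.58 in mutant ovaries and 6.43, 6.43 and 6.59 in testes, against 9.15 and 8.58 in wild-type ovaries. The mutant ovaries were highest, the wild-type ovaries followed, and the testes were far below, with no overlap between any of the groups. The difference between mutant and wild-type ovary was 0.72 ± 0.17 (95% interval 0.35 to 1.09, limma adjusted p = 0.0153). This call was lost in a fit of the ovaries alone (limma adjusted p = 0.0696), without mutant ovary 1 (0.65, limma adjusted p = 0.0518) and without wild-type ovary 2 (0.43, limma adjusted p = 0.0716). Against testis, mutant ovaries were 8.56-fold higher (3.10 ± 0.15, limma adjusted p = 1.83e-08). Stroma is a tissue that responds to the ligands. Its markers averaged 9.03 to 9.38 in mutant ovaries, 5.97 to 6.19 in testes and 8.89 to 9.27 in wild-type ovaries. Against wild-type ovary 1 of 5 rose in mutant ovary and 1 fell (40%, against 16.2% of all genes). In the limma fit 3 of 5 markers had an unadjusted p under 0.05, against 28.9% of all genes. Their part in the Ptch1 result was not tested.

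Smo, which carries the signal across the membrane, had RMA levels of 8.35, 8.39 and 8.48 in mutant ovaries and 5.71, 5.43 and 5.27 in testes, against 9.03 and 8.51 in wild-type ovaries. Mutant ovaries lay just under wild-type ovaries without overlap, and both lay far above the testes. Mutant minus wild-type ovary gave -0.36 ± 0.18 (95% interval -0.76 to 0.030, limma adjusted p = 0.209), and it passed only without wild-type ovary 2 (-0.63, limma adjusted p = 0.0331). Against testis, mutant ovaries were 7.65-fold higher (2.93 ± 0.16, limma adjusted p = 4.52e-08).

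Of the Gli genes, 0 of 3 passed the limma test between mutant and wild-type ovary, and 0 of 3 had an unadjusted p under 0.05, against 28.9% of all genes. Gli1 had RMA levels of 5.92, 6.01 and 6.06 in mutant ovaries and 5.24, 4.95 and 5.12 in testes, against 6.01 and 5.58 in wild-type ovaries. Mutant and wild-type ovaries overlapped for Gli1, at a difference of 0.20 ± 0.16 (95% interval -0.16 to 0.55, limma adjusted p = 0.469). Gli2 had RMA levels of 5.46, 5.49 and 5.50 in mutant ovaries and 4.77, 4.85 and 5.04 in testes, against 5.78 and 5.75 in wild-type ovaries. Its mutant and wild-type ovaries did not overlap, at -0.28 ± 0.13 (95% interval -0.57 to 0.0049, limma adjusted p = 0.181). Gli3 had RMA levels of 4.41, 4.78 and 4.97 in mutant ovaries and 4.27, 4.38 and 4.47 in testes, against 4.93 and 5.13 in wild-type ovaries. Gli3 overlapped between mutant and wild-type ovaries (-0.31 ± 0.17, limma adjusted p = 0.282) and was below the median gene on all 8 adult arrays.

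Hhip, a surface protein that binds hedgehog ligands and limits their spread, had RMA levels of 3.45, 3.58 and 3.77 in mutant ovaries and 3.51, 3.61 and 3.76 in testes, against 5.89 and 4.38 in wild-type ovaries. Mutant ovaries and testes overlapped, and wild-type ovary 1 was far above wild-type ovary 2. All arrays but wild-type ovary 1 (7 of 8) read Hhip below their median gene, so no fold is given. The difference between mutant and wild-type ovary was -1.54 ± 0.34 (95% interval -2.28 to -0.79, limma adjusted p = 0.011). It was -0.78 without wild-type ovary 1 but -2.29 without wild-type ovary 2, both past the test, and missed it in a fit of the ovaries alone (limma adjusted p = 0.0502). The gap of 1.51 between the wild-type ovaries compares with a median gap of 0.21 over all genes, and it was 0.90 for Ihh, 0.58 for Ptch1, 0.52 for Smo, 0.50 for Dhh and 0.43 for Gli1. For these 6 genes wild-type ovary 1 was the higher one, as it was for the oocyte markers, whose part was not tested. Theca and Leydig markers are of the cells in which Hhip can respond. They averaged 8.13 to 8.82 in mutant ovaries, 7.70 to 8.11 in testes and 8.03 to 8.55 in wild-type ovaries. Of these markers 1 of 6 was higher and 1 of 6 lower in mutant than in wild-type ovary (33.3%, against 16.2% of all genes). In the limma fit 5 of 6 had an unadjusted p under 0.05, against 28.9% of all genes. Smooth muscle markers, of cells that also surround follicles, fell in 5 of 5 cases in mutant ovary, against 6.66% of all genes. In a fit of the ovaries alone 3 of 5 fell. The list averaged 7.03 to 7.81 in mutant ovaries, 7.16 to 7.36 in testes and 8.55 to 8.81 in wild-type ovaries. The part of either list in the Hhip result was not tested.

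Testis was also set against wild-type ovary, and these organs differ in many kinds of cell besides Sertoli and granulosa cells. Of the 9 genes 7 fell in testis and 0 rose, which is 77.8%, against 60.3% of all genes (24.4% higher, 35.9% lower). The same 7 genes did not overlap between testes and wild-type ovaries, against 73.8% of all genes. Their differences were -3.30 ± 0.18 for Smo (limma adjusted p = 5.44e-08), -2.38 ± 0.17 for Ptch1 (limma adjusted p = 4.56e-07) and -2.07 ± 0.23 for Ihh (limma adjusted p = 1.57e-05). Hhip gave -1.51 ± 0.34 (limma adjusted p = 0.00255), -0.76 with the first wild-type ovary left out and -2.27 with the second left out. Among the Gli genes Gli2 gave -0.88 ± 0.13, Gli1 -0.70 ± 0.16 and Gli3 -0.66 ± 0.17 (limma adjusted p = 0.000148, 0.00316 and 0.00724 in that order). Dhh (-0.32 ± 0.21, 95% interval -0.80 to 0.15, limma adjusted p = 0.216) and Shh (-0.19 ± 0.15, 95% interval -0.52 to 0.14, limma adjusted p = 0.287) did not pass. The median of the 9 genes was -0.88, beside -0.15 over all genes. Spermatid markers averaged 11.17 to 11.33 in testes and 4.39 to 4.41 in wild-type ovaries, and 5 of 5 rose. Their part in these falls was not tested. This comparison shares its 2 wild-type ovaries with that of mutant ovary, so the values of both are only set side by side.

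Mutant ovary exceeded testis in 5 of the 9 genes (55.6%, against 61.8% of all genes, 37.5% higher and 24.3% lower). These were Dhh, Ptch1, Smo, Gli1 and Gli2, and 0 fell. Gli1 was higher by 0.89 ± 0.14 (limma adjusted p = 0.000241) and Gli2 by 0.60 ± 0.12 (limma adjusted p = 0.000964). Gli3 missed the test at 0.35 ± 0.15 (limma adjusted p = 0.0749), passing without mutant ovary 1 (0.50, limma adjusted p = 0.012). Shh (0.21 ± 0.13, 95% interval -0.082 to 0.51) and Hhip (-0.025 ± 0.30, 95% interval -0.69 to 0.64) did not pass. Groups did not overlap for 6 of the 9 genes, the 5 called and Ihh, against 69.5% of all genes. In order of level, Dhh therefore ran from mutant ovary down to wild-type ovary and testis, which were not separated. Ihh ran from wild-type ovary down to mutant ovary and testis, which were not separated by the test. Ptch1 ran from mutant ovary over wild-type ovary to testis, each step past the test. For Smo, Gli1 and Gli2 both kinds of ovary, not separated from each other, stood above testis, and for Hhip wild-type ovary stood above mutant ovary and testis, which were not separated.

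**Figure D3:**
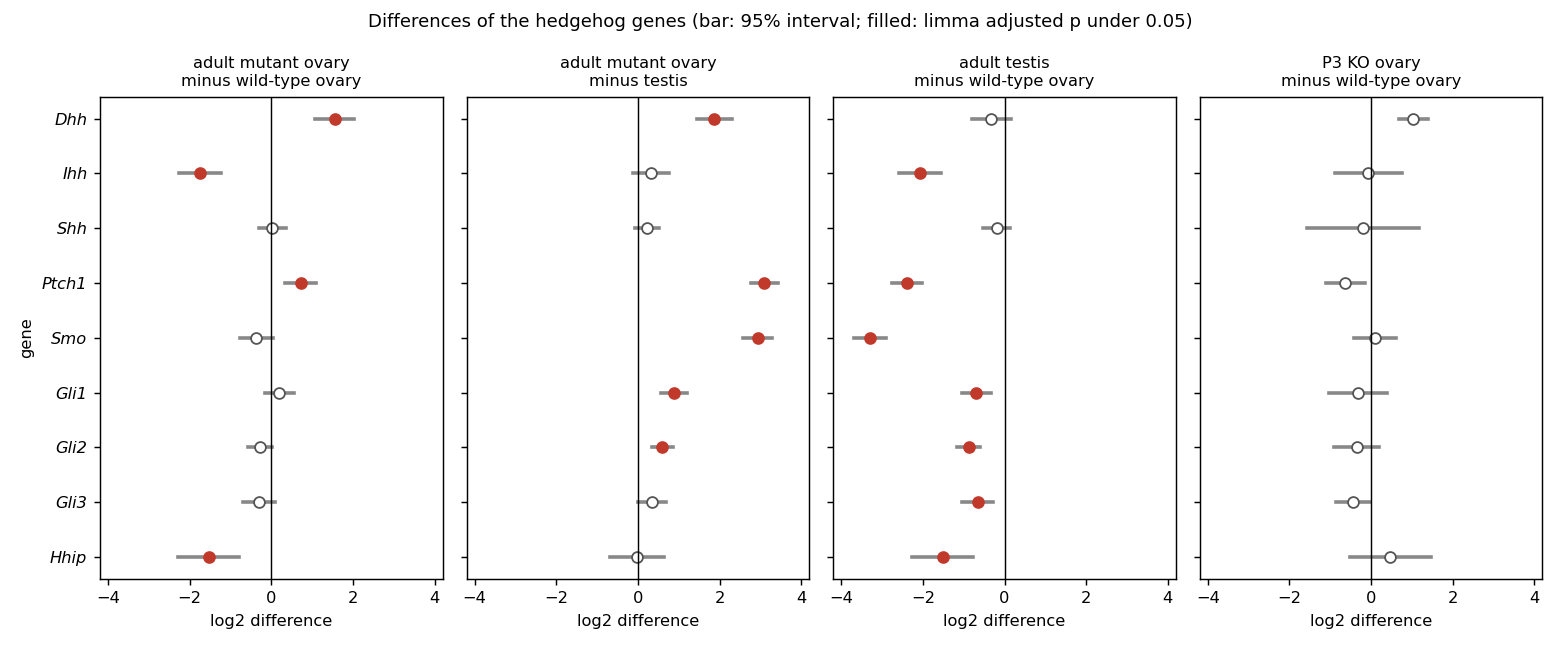
Log2 differences (horizontal axis) of the 9 hedgehog genes in the 3 adult comparisons and at P3, with bars for the 95% interval and filled points where the limma adjusted p was under 0.05. In mutant against wild-type ovary Dhh (1.55) and Ptch1 (0.72) lie right of 0 and Ihh (-1.75) and Hhip (-1.54) left of it; no point is filled at P3.

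At P3 none of the 9 genes passed (0 of 9), against 0.324% of all 18194 genes (0.137% higher, 0.187% lower). At an unadjusted p under 0.05, the limma fit held 3 of the 9 and 1734 (9.53%) of all genes. KO and wild-type pools did not overlap for 4 of the 9 genes (Dhh, Ptch1, Gli2 and Gli3), against 38.9% of all genes. The median difference of the 9 was -0.21, beside -0.0051 over all genes.

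**Figure D4:**
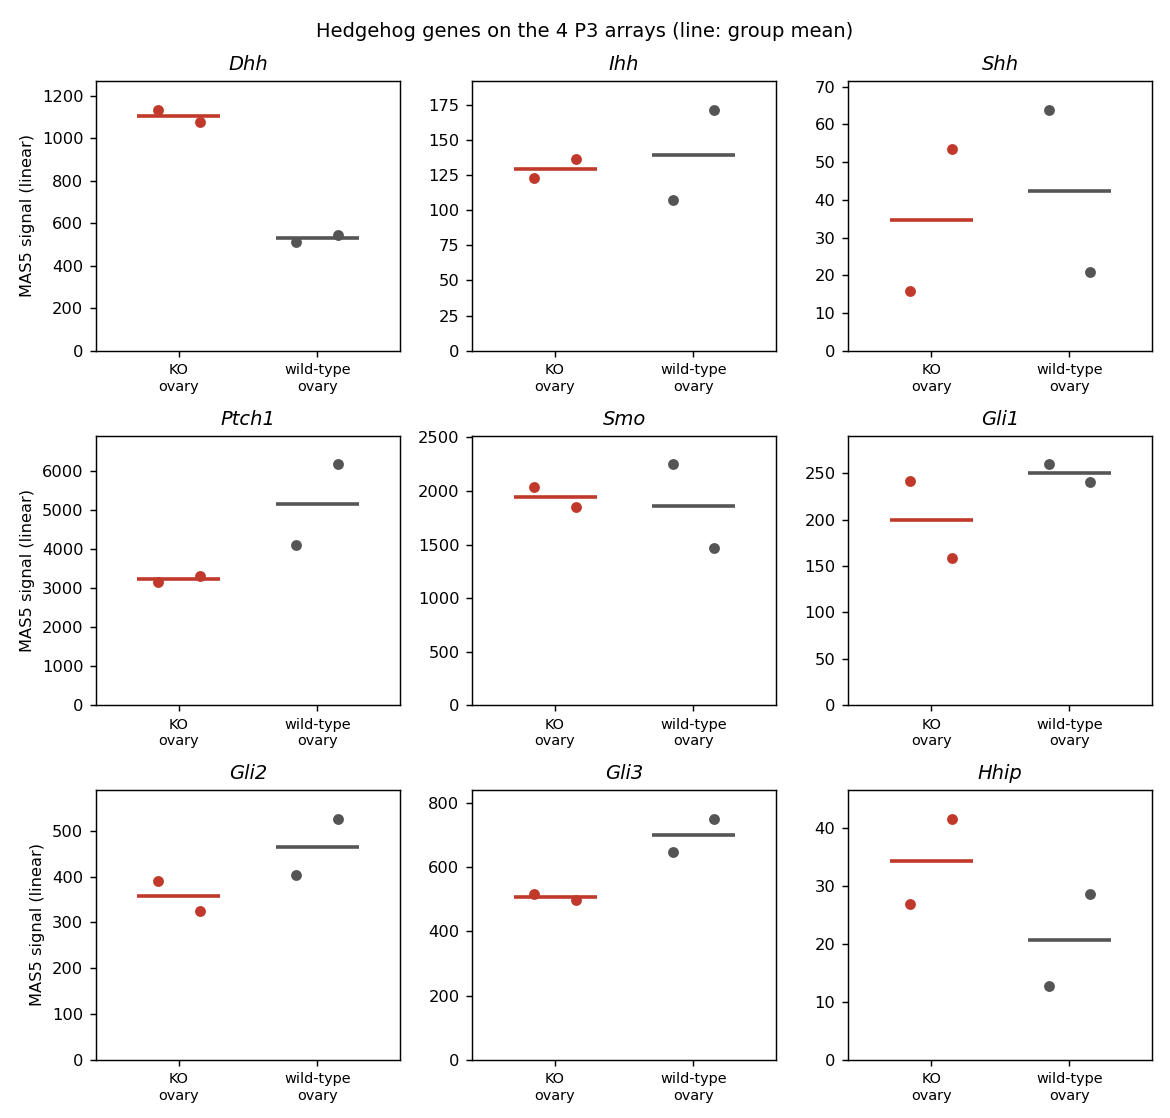
MAS5 signals (linear, vertical axis starting at 0 and scaled for each gene) of the 9 hedgehog genes on the 4 P3 arrays, with 1 point per pooled array and a line at each group mean; KO ovaries stand left of wild-type ovaries. Dhh signals are 1134 and 1076 in KO ovaries and 514 and 546 in wild-type ovaries, while Ihh overlaps between the groups.

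Dhh had signals of 1134 and 1076 in KO ovaries, against 514 and 546 in wild-type ovaries. Both KO pools were above both wild-type pools, and the differences within each group were small beside that between them. The difference was 1.04 ± 0.15 (95% interval 0.67 to 1.40, limma adjusted p = 0.0688). It passed in only 2 of 12 alternatives. These were leaving out genes under the median level (limma adjusted p = 0.0235) and the replicate block (limma adjusted p = 0.0169). Without the intensity trend it was further from the threshold (limma adjusted p = 0.221). A second, dim probe set of Dhh read 4.30 and 7.40 in KO ovaries, against 4.60 and 12.7 in wild-type ovaries, and moved by -0.16. With the mean over both probe sets the difference was 0.44 (limma adjusted p = 0.752). Sertoli markers averaged 7.91 to 8.10 on the log2(signal + 16) scale in KO ovaries and 6.72 to 7.11 in wild-type ovaries. Of these markers 0 of 6 were past the test, against 0.324% of all genes. In the limma fit 3 of 6 had an unadjusted p under 0.05, against 9.53% of all genes. The part of these markers in the Dhh values was not tested.

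Ihh signals were 123 and 136 in KO ovaries, against 107 and 171 in wild-type ovaries. All 4 arrays read Ihh below their median gene. The KO pools lay between the wild-type pools, at a difference of -0.064 ± 0.34 (95% interval -0.89 to 0.76, limma adjusted p = 0.978). Dhh minus Ihh was 3.05 and 2.84 in KO ovaries, against 2.10 and 1.59 in wild-type ovaries, a change of 1.10 (exact two-sided permutation p = 0.333, the smallest that 2 against 2 arrays allow). With the mean over probe sets this change was 0.50. Granulosa markers averaged 6.68 to 6.88 in KO ovaries and 8.51 to 8.66 in wild-type ovaries. Of these markers 3 of 6 were lower, Foxl2 itself among them, against 0.187% of all genes. Shh signals were 15.9 and 53.5 in KO ovaries, against 63.8 and 21.0 in wild-type ovaries, below the median gene on all 4 arrays and overlapping.

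Ptch1 signals were 3164 and 3314 in KO ovaries, against 4119 and 6173 in wild-type ovaries. Both KO pools were below both wild-type pools, at -0.64 ± 0.20 (95% interval -1.11 to -0.16, limma adjusted p = 0.346). The other 2 probe sets of Ptch1 gave -0.22 and -0.72 but were dim. The first read 53.2 and 47.4 in KO ovaries, against 69.8 and 53.6 in wild-type ovaries. The second read 8.5 and 8.5 in KO ovaries, against 46.2 and 10.1 in wild-type ovaries. Gli3 had signals of 516 and 496 in KO ovaries, against 647 and 750 in wild-type ovaries, again without overlap (-0.45 ± 0.17, limma adjusted p = 0.488). Its other probe sets gave -0.36 and 0.40. Gli2 read 391 and 326 in KO ovaries, against 405 and 526 in wild-type ovaries (-0.36 ± 0.23, limma adjusted p = 0.73), but its second probe set gave 0.84. Probe sets of Gli2 and Gli3 thus disagreed in direction. Theca and Leydig markers averaged 7.34 to 7.37 on the log2(signal + 16) scale in KO ovaries and 7.87 to 8.11 in wild-type ovaries. Of these markers 1 of 5 was lower, against 0.187% of all genes. In the limma fit 2 of 5 had an unadjusted p under 0.05, against 9.53% of all genes. Stroma markers averaged 10.86 to 11.26 in KO ovaries and 11.31 to 11.36 in wild-type ovaries. Endothelial markers averaged 7.33 to 7.71 in KO ovaries and 8.07 to 8.33 in wild-type ovaries. Neither list mean overlapped between the groups. Each list had 0 of 5 past the limma test, against 0.324% of all genes. In the limma fit each had 2 of 5 at an unadjusted p under 0.05, against 9.53% of all genes. Oocyte markers averaged 11.48 to 11.74 in KO ovaries and 12.20 to 12.26 in wild-type ovaries. Smooth muscle markers averaged 8.92 to 9.01 in KO ovaries and 9.07 to 9.22 in wild-type ovaries. Both had 0 of 5 past the limma test, against 0.324% of all genes. At an unadjusted p under 0.05 in that fit were 3 of 5 oocyte and 2 of 5 smooth muscle markers. List means of leukocyte, surface epithelium and spermatid markers overlapped. The part of any of these lists in the Ptch1 values was not tested. Smo had signals of 2042 and 1855 in KO ovaries, against 2249 and 1470 in wild-type ovaries. Gli1 read 242 and 158 in KO ovaries, against 259 and 241 in wild-type ovaries. The groups overlapped for both genes, and Gli1 was below the median gene on all 4 arrays. Hhip read 26.9 and 41.5 in KO ovaries, against 12.7 and 28.5 in wild-type ovaries, below the median gene on all 4 arrays and overlapping, and its 4 probe sets gave 0.47, -0.43, -0.27 and -1.04.

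Beyond the 9 genes, 49 others of the pathway were followed, and 45 were measured in each table. Between adult mutant and wild-type ovary 3 of 45 rose and 3 fell (13.3%, against 16.2% of all genes), at a median of 0.055 beside -0.025 over all genes. In a fit of the ovaries alone 1 rose and 2 fell, and without wild-type ovary 1 it was 8 and 2. Of 7 genes for making and releasing the ligands, 1 rose and 2 fell (42.9%, against 16.2% of all genes). Scube1 and Scube2 are secreted proteins that help lipid-modified ligands leave the cell. Scube1 fell by 0.99 ± 0.23 (limma adjusted p = 0.0151), with RMA levels of 5.70, 5.42 and 5.70 in mutant ovaries, against 7.07 and 6.14 in wild-type ovaries. Mutant ovaries lay below both wild-type ovaries, and without wild-type ovary 1 the fall was 0.53. The call was lost in 2 of 14 alternatives, that one (limma adjusted p = 0.0541) and a fit of the ovaries alone (limma adjusted p = 0.0673). Scube2 rose by 0.64 ± 0.17 (limma adjusted p = 0.0304), with RMA levels of 6.48, 6.21 and 6.84 in mutant ovaries and 6.67, 6.60 and 6.52 in testes, against 5.90 and 5.84 in wild-type ovaries. All mutant ovaries were above both wild-type ovaries, but 10 of 15 alternatives lost the call. Hhat, the enzyme that adds palmitate to the ligands, fell by 0.63 ± 0.15 (limma adjusted p = 0.0154), with RMA levels of 4.62, 4.83 and 4.75 in mutant ovaries, against 5.29 and 5.43 in wild-type ovaries, and lost the call in 3 of 14 alternatives.

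Co-receptors such as Boc and Cdon, which help ligands bind Ptch1, gave 0 of 5 past the limma test in mutant against wild-type ovary, and 0 of 5 at an unadjusted p under 0.05, against 28.9% of all genes. Of 11 regulators of the Gli proteins 1 fell (9.09%, against 16.2% of all genes). This was Sufu, a protein that binds Gli proteins and restrains them. Its RMA levels were 6.67, 6.87 and 6.68 in mutant ovaries and 9.02, 8.87 and 8.95 in testes, against 7.66 and 7.27 in wild-type ovaries. Mutant ovaries were lowest and testes highest, without overlap (mutant minus wild-type ovary -0.72 ± 0.14, limma adjusted p = 0.00613), and all 15 alternatives kept the call. Of 11 genes of cilium transport 1 rose (9.09%, against 16.2% of all genes). This was Ift57, by 0.84 ± 0.19 (limma adjusted p = 0.0127). It had RMA levels of 7.35, 7.23 and 6.85 in mutant ovaries and 8.47, 8.55 and 8.59 in testes, against 6.58 and 6.03 in wild-type ovaries. This call was lost in 2 of 15 alternatives. Of 11 genes known as targets in other tissues 1 rose (9.09%, against 16.2% of all genes). This was Igfbp6, which encodes a binding protein for insulin-like growth factors. Its RMA levels were 10.00, 10.52 and 10.24 in mutant ovaries and 7.26, 7.20 and 7.07 in testes, against 8.86 and 8.64 in wild-type ovaries. The 3 groups were apart in that order, at 1.50 ± 0.15 between mutant and wild-type ovary (limma adjusted p = 0.000107), and all 15 alternatives kept the call.

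In testis against wild-type ovary 16 of the 45 rose and 22 fell (84.4%, against 60.3% of all genes). Cilium genes rose in 10 of 11 cases, with a median of 2.16, and Tulp3 fell. Targets of other tissues fell in 10 of 11 cases, with a median of -0.88. Co-receptors fell in 3 of 5 cases, including Boc (-1.52 ± 0.23, limma adjusted p = 0.000158). Sufu rose by 1.48 ± 0.14 (limma adjusted p = 5.08e-06). The spermatid markers were high in the same 3 arrays, as given above, and their part in the cilium result was not tested. Mutant ovary against testis gave 21 of 45 higher and 13 lower (75.6%, against 61.8% of all genes). At P3 none of the 45 passed (0 of 45), and in the limma fit 6 (13.3%) had an unadjusted p under 0.05, against 9.53% of all genes. The co-receptor Cdon passed in 3 of 12 alternatives.

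**Figure D5:**
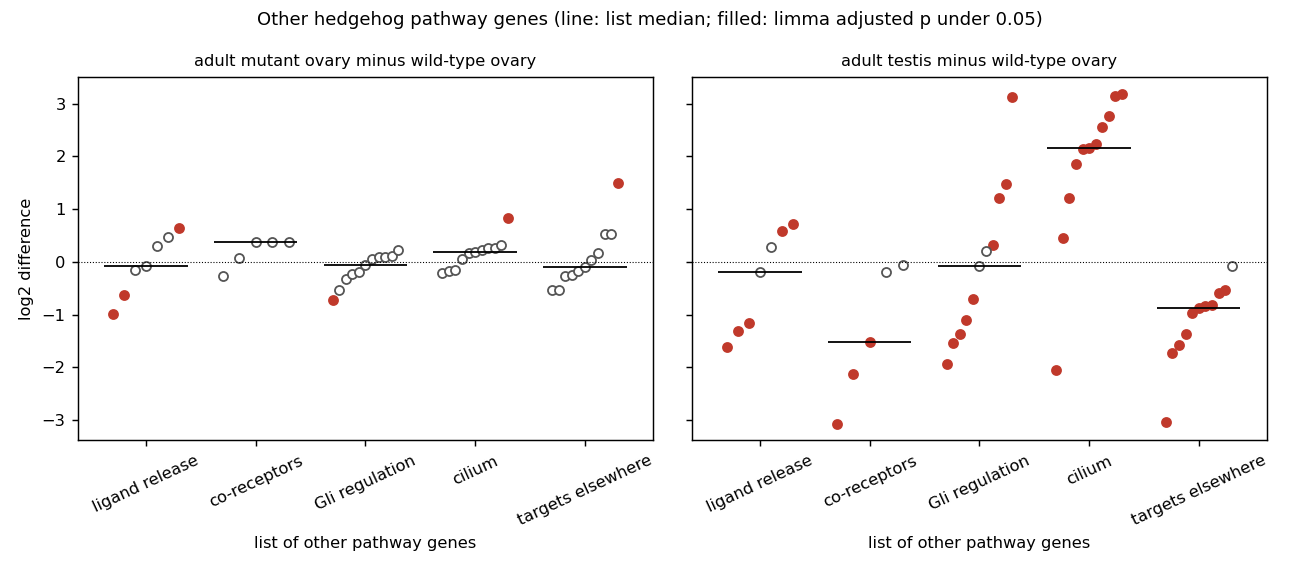
Log2 differences (vertical axis) of the other pathway genes by list in adult mutant against wild-type ovary (left) and testis against wild-type ovary (right), with 1 point per gene, a line at each list median and filled points where the limma adjusted p was under 0.05. In the left panel 6 points are filled; in the right panel 10 of 11 cilium genes lie above 0 and filled and 10 of 11 targets lie below 0 and filled.

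Likeness to Ihh, Dhh and Gli1 was measured as the root mean square difference (log2) between profiles over the 8 adult arrays, each centred on its own mean, among genes with an SD of at least 0.5. Nearest to Ihh were Mpped2 (0.179), Nupr1 (0.187), Cdca7 (0.189), Crabp2 (0.198) and Postn (0.208). All 5 were highest in the 2 wild-type ovaries, for example Mpped2 at 4.30 to 4.60 in mutant ovaries, 4.05 to 4.32 in testes and 5.71 to 6.95 in wild-type ovaries. Nearest to Dhh were Gstm3 (0.147), Zmat1 (0.168), Slc44a2 (0.170), Vasn (0.176) and Rasgef1c (0.176). All 5 were highest in the 3 mutant ovaries, for example Zmat1 at 6.45 to 6.68 in mutant ovaries, 4.51 to 4.60 in testes and 4.57 to 5.24 in wild-type ovaries. Nearest to Gli1 were 4931414P19Rik (0.106), Stau1 (0.106), Aldh9a1 (0.111), Wnk2 (0.118) and Mtrr (0.120), which were lowest in the 3 testes. Gli1 itself had an SD of 0.45, under the limit, so genes that vary as little as Gli1 were not searched. These measures describe 8 arrays in 3 groups, and any gene that separates the groups by a like amount comes close.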

How the data were processed

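Submitters' processing notes name RMA and the Affymetrix Expression Console for the adult arrays and MAS5 for P3. The authors' adult values are thus log2 levels after background correction, normalization between arrays and summary over probes, and their deposited P3 signal is a linear intensity. No source used here gives versions. Labelling used 300 ng of RNA for adult arrays and 1 µg for P3 arrays, per the labels' protocols, which give a CodeLink protocol for P3, although MAS5 and the probe names belong to Affymetrix arrays. Adult medians over all probe sets were 4.83 to 4.94. Medians over genes, which define the median gene of an adult array, were 5.45 to 5.60. Replicates correlated at 0.976 to 0.996 in adults and at 0.969 and 0.975 at P3. The number of arrays limits the precision.

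Of 35557 adult and 45101 P3 probe sets, 21789 and 34958 had a single gene in the platform annotation, with symbols updated through RefSeq except for 91 and 204. The probe set with the highest mean stood for a gene. R 4.3.3 and limma 3.58.1 (lmFit, eBayes with intensity trend, two-sided) were used, with the 8 adult arrays in one fit and the 4 P3 arrays alone as log2(signal + 16). Every array column was used, adult replicates are separate animals, and no test crossed the tables. The code was tested on simulated data. Alternatives were no trend, the mean over probe sets, quantile normalization, median centring, genes above the median level, another pseudocount, the replicate block, the fit without testes and leaving out each array. All 9 hedgehog genes were named. Of the other pathway genes, those past the test in an ovary comparison were named, with a few as examples. The genes, lists and tests were chosen with earlier results of these data known.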

Additional observations from a re-analysis of the deposited data

Results flagged for a closer look

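Ptch1 moved in opposite directions in the adult and P3 comparisons. Its difference was 0.72 between adult mutant and wild-type ovary, where every mutant ovary was above both wild-type ovaries. It was -0.64 between P3 KO and wild-type ovary, where both KO pools were below both wild-type pools. Scube2 did the same, at 0.64 between adult mutant and wild-type ovary and -0.36 between P3 KO and wild-type ovary. Its P3 signals were 544 and 472 in KO ovaries, against 701 and 609 in wild-type ovaries. The difference between the ages was not tested for either gene, since the tables come from different arrays, and neither P3 value passed the test (limma adjusted p = 0.346 for Ptch1 and 0.647 for Scube2).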

How the results depend on the processing

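In a fit of the ovaries alone, calls between adult mutant and wild-type ovary fell to 1731 genes, against 3232, and to 2 of the 9 hedgehog genes (Dhh and Ihh), against 4. With genes above the median level only, 4 hedgehog genes were tested, and testis against wild-type ovary gave 8000 genes and 3 hedgehog genes, while mutant ovary against testis gave 3. At P3 the count of 59 genes was 0 without the intensity trend, 22 with the mean over probe sets, 186 with genes above the median level and 0 to 22 with 1 array left out. Dhh made 1 hedgehog call among the 186. Arrays of the same replicate number were only weakly alike (r of deviations -0.00279 to 0.079 over 7 adult pairs and 0.0423 at P3). Between mutant ovary and testis such pairs gave 0.0575 to 0.079, and the other pairs -0.0595 to -0.00165. In a group of 2 arrays the deviations mirror each other, so these values cannot exclude pairing. The replicate block gave 2674, 11433 and 12136 genes in adult mutant against wild-type ovary, testis against wild-type ovary and mutant ovary against testis, and 305 genes and 1 hedgehog gene (Dhh, limma adjusted p = 0.0169) at P3. It added Gli3 in mutant ovary against testis (limma adjusted p = 0.0432). Some differences that had not passed changed sign. Between mutant and wild-type ovary Shh was -0.00419 with median centring and -0.097 to 0.14 with 1 array left out, and Gli1 -0.019 to 0.42. Between mutant ovary and testis Hhip ran from -0.11 to 0.049 and Scube2 from -0.25 to 0.059 with 1 array left out. At P3 the mean over probe sets turned Gli2 (0.24) and Hhip (-0.32). Igfbp6 was 0.046 with median centring and 0.000199 with a pseudocount of 64. With 1 array left out at P3, Ihh ran from -0.37 to 0.24, Shh from -0.77 to 0.36, Smo from -0.21 to 0.40, Hhat from -0.89 to 0.067, Sufu from -0.13 to 0.018 and Igfbp6 from -0.23 to 0.23. The causes were not tested. Where an arm kept 1 array, it was assumed to vary like the other groups. Signals below the median gene of every array limit Shh and Gli3 in adults and Shh, Ihh, Gli1 and Hhip at P3. In adults Hhip was below it on 7 of 8 arrays, Gli2 on 6, Ihh on 4, Gli1 on 3 and Smo on 2.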

Other observations

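Of the other pathway genes at P3, Cdon and Boc, both co-receptors that help ligands bind Ptch1, are given here because their groups were well apart, a choice made after their values were seen. Cdon had MAS5 signals of 4167 and 4154 in KO ovaries, against 2349 and 1938 in wild-type ovaries (0.96 ± 0.13, limma adjusted p = 0.0641). Boc had signals of 1154 and 1243 in KO ovaries, against 817 and 686 in wild-type ovaries (0.67 ± 0.16, limma adjusted p = 0.198). Neither passed the test, but Cdon passed with median centring (limma adjusted p = 0.0441), with genes above the median level only (limma adjusted p = 0.0285) and with the replicate block (limma adjusted p = 0.00655). Between adult mutant and wild-type ovary Cdon differed by 0.067 ± 0.18 (limma adjusted p = 0.855) and Boc by 0.38 ± 0.23 (limma adjusted p = 0.315).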
